A study of Mus musculus with 15 samples.

Results

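*Dock10*, *Ptpn22* and *Slco2a1* are 3 of the 20910 genes in a count table of cultured mouse retinal pigment epithelium cells (mRPE). They were selected on their own mRPE counts, which were low in all 4 WT libraries and both libraries of the *Prom1*-KO clone KO26, and over 8-fold higher in all 3 libraries of the *Prom1*-KO clone KO22. Those values are therefore a description of what chose the genes, and no test is given for them. Under the same 8-fold criterion, with the lowest KO22 library over 8 times the highest WT or KO26 library, 164 genes (0.784%) met the rule. By that ratio *Ptpn22* ranked 57, *Dock10* ranked 107 and *Slco2a1* ranked 134 among the 164 genes. At the edge of the rule, *Fbln1* (8.12) and *Slc16a3* (8.1) lay just inside, and *Btc* (7.95) and *Sema7a* (7.93) just outside.

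RNA was sequenced from mRPE cells and from RPE/choroid dissected from mouse eyes. The mRPE line came from pooled cells of C57/BL6J mice, made permanent with a lentivirus carrying papillomavirus oncogenes, and the *Prom1*-KO cells carry a Cas9 lentivirus selected with puromycin and were transfected with a *Prom1* guide RNA. Each KO line is a single clone, so the effects of the clone and of *Prom1* loss cannot be told apart within KO22, and whether the WT libraries carry the Cas9 vector is not given in the sources used here. By their names, the mRPE libraries were sequenced in 2 batches. Replicate 1 of each group is from batch 1, and WT 2 to 4, KO22 2 and 3 and KO26 2 are from batch 2. The paper left both KO26 libraries out, since they stayed outliers after its batch correction. They are used here, so every comparison with KO26 rests on libraries that the paper excluded. The 6 RPE/choroid libraries are 3 from WT mice and 3 labelled *Prom1*-KO, from *Prom1* fl/fl mice crossed with RPE65-Cre mice and given tamoxifen, so deletion was aimed at the RPE alone among the cells of the tissue. The labels give no age for these mice, and do not say that libraries of a group came from separate cultures or animals, so the p-values measure the spread between these libraries.

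*Dock10* encodes a guanine nucleotide exchange factor of the DOCK family that loads Cdc42 and Rac with GTP and so acts on the actin cytoskeleton; it is best known in lymphocytes. *Ptpn22* encodes a PEST-type tyrosine phosphatase that binds the kinase CSK and restrains SRC-family and related kinases in T and B cells. *Slco2a1* encodes the prostaglandin transporter, an organic anion transporter that takes prostaglandins up into cells for oxidation and is also abundant in vascular endothelium.

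Library totals ran from 8076188 to 27537863 in mRPE and 48154444 to 61766179 in RPE/choroid. The label of the cultured cells was only partly borne out by its markers, since 7 of 11 RPE markers, *Rpe65* and *Rlbp1* among them, had no row in the mRPE table, and the remaining 4 summed to 11.8 to 17.4 CPM in WT. In RPE/choroid the 11 RPE markers summed to 2060 to 2970 CPM in WT and to 582 to 790 CPM in the libraries labelled *Prom1*-KO, where *Lrat*, *Rpe65*, *Rdh5* and *Rgr* were called lower. *Prom1* itself was not analysed here in mRPE, and in RPE/choroid it lay at 50.5 ± 2.47 CPM in WT and 44.5 ± 7.83 CPM in the libraries labelled *Prom1*-KO (SD, n = 3 each, edgeR log2 fold change -0.18, adjusted p = 0.824). In bulk libraries, fewer cells of a type and less RNA per cell cannot be told apart.

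The start regions of the 3 genes are shown because they frame the question of what the genes share apart from their levels. Each sequence runs 5′ to 3′ on the gene's strand, from 250 bases before to 50 bases after an annotated start site of GENCODE on GRCm39, the build of the counts. *Dock10* (ENSMUSG00000038608) spans chr1:80478790-80736244 on the minus strand. For it 2 start regions are shown, that of its canonical transcript Dock10-205 and one far upstream that begins Dock10-201. *Ptpn22* (ENSMUSG00000027843) spans chr3:103767062-103819565 and *Slco2a1* (ENSMUSG00000032548) spans chr9:102865911-102973201, both on the plus strand. For these genes only the start of the canonical transcript is shown. Both spans begin upstream of the window shown, so other annotated starts lie outside it and were not examined. Capitals mark matches to a RUNX motif (TGTGGT), a GC box (GGGCGG) or a TATA box (TATAAA), on either strand.
Dock10-205, chr1:80643023-80643322: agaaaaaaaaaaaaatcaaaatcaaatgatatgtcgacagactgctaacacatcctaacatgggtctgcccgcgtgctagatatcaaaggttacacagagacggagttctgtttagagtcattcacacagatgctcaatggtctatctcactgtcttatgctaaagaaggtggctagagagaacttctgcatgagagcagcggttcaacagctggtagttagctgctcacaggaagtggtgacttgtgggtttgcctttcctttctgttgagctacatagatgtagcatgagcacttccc
Dock10-201, chr1:80736116-80736415: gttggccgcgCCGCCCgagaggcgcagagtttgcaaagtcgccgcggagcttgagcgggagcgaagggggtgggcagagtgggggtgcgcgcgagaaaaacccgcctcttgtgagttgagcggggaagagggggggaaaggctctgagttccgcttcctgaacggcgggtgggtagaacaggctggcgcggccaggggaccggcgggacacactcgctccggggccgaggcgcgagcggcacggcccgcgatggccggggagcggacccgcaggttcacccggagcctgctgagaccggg
Ptpn22-201, chr3:103767332-103767631: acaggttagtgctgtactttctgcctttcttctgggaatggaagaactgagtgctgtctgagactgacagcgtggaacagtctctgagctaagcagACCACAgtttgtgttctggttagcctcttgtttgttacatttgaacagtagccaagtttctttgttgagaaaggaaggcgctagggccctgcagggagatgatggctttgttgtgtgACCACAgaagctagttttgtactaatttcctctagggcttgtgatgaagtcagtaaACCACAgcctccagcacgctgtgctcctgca
Slco2a1-201, chr9:102884951-102885250: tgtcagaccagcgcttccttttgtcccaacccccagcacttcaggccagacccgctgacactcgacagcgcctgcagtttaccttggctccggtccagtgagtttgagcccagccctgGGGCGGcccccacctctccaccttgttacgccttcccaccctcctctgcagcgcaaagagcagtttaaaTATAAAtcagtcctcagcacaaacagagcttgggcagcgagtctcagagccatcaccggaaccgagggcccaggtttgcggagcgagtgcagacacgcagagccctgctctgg

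The 4 windows had little in common. The upstream *Dock10* window held 36 CpG dinucleotides with 71.7% GC, more CpG than 95.7% of 21757 annotated promoters, whereas the canonical *Dock10* window held 5 CpG with 43.7% GC. *Ptpn22* had 3 CpG with 47.7% GC and *Slco2a1* 14 CpG with 60.3% GC, against a median of 11 CpG and 54.3% GC over all promoters. The *Ptpn22* window held 3 RUNX matches, starting at -154, -37 and 20 from the start site, and 15.3% of promoters hold at least 1. *Slco2a1* held a GC box at -132 and a TATA box at -63, motifs found in 42.5% and 13.2% of promoters, and the upstream *Dock10* window held a GC box at -240. On neither strand did a window hold the AP-1 letters TGANTCA, found in 7.15% of promoters. The same was true of the ETS letters CCGGAAGT (4.35%). It was true of the CRE letters TGACGTCA (2.45%). The GATA letters AGATAA (10.6%), an NF-kappaB motif (1.76%) and an ISRE motif (3.84%) were not found either. The short E-box (CANNTG, not in capitals), found in 70.6% of promoters, matched 3 times in the canonical *Dock10* window and once in the *Ptpn22* window.

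*Dock10* rested on 9 to 40 counts per library in WT and KO26 and on 438 to 3226 counts in KO22. Its level was 0.437, 2.74, 2.95 and 2.66 CPM in WT 1 to 4 (11, 40, 30 and 37 counts), 37.9, 155.5 and 109.9 CPM in KO22 1 to 3 (438, 3226 and 1416 counts) and 0.418 and 1.97 CPM in KO26 1 and 2 (9 and 17 counts). CPM are counts scaled to a common library size with TMM factors. In every group the batch 1 library was the lowest, and no KO22 library overlapped WT or KO26. The means were 2.2 ± 1.18 CPM in WT (SD, n = 4) and 101.1 ± 59.3 CPM in KO22 (SD, n = 3), and the lowest KO22 library was 12.9 times the highest of the other 6.

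*Ptpn22* stayed under 1 CPM in every WT and KO26 library. WT 1 to 4 had 0.874, 0.686, 0.786 and 0.933 CPM (22, 10, 8 and 13 counts), and KO26 1 and 2 had 0.557 and 0.694 CPM (12 and 6 counts). KO22 1 to 3 had 28.2, 49.8 and 51.6 CPM (326, 1032 and 665 counts). The group means were 0.82 ± 0.108 CPM in WT (SD, n = 4) and 43.2 ± 13 CPM in KO22 (SD, n = 3), and the lowest KO22 library was 30.2 times the highest of the other 6.

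*Slco2a1* was already present in WT and KO26, so it was raised from a low level rather than from near 0. It lay at 4.05, 6.92, 8.25 and 7.54 CPM in WT 1 to 4 (102, 101, 84 and 105 counts) and at 2.78 and 8.44 CPM in KO26 1 and 2 (60 and 73 counts). KO22 1 to 3 had 83.5, 100.9 and 88.5 CPM (966, 2093 and 1141 counts), the tightest KO22 values of the 3 genes. The means were 6.69 ± 1.84 CPM in WT (SD, n = 4) and 91 ± 8.94 CPM in KO22 (SD, n = 3). The lowest KO22 library was 9.89 times the highest of the other 6, which was KO26 2.

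**Figure D1:**
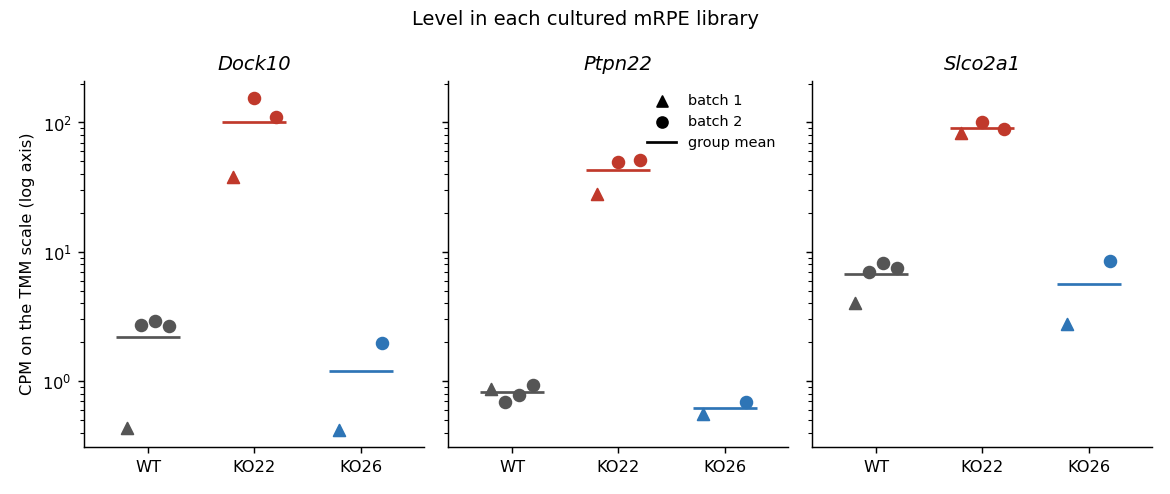
Level of each gene in the 9 mRPE libraries, in CPM on a log axis. Each point is 1 library (triangles, batch 1; circles, batch 2) and each bar the group mean; for *Dock10* the batch 1 libraries are the lowest of each group (0.437, 37.9 and 0.418 CPM), and for all 3 genes every KO22 library is above every WT and KO26 library.

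Fitted with the batch as a term, the log2 fold change of KO22 against WT was 5.73 for *Dock10* (SE 0.198), 5.65 for *Ptpn22* (SE 0.211) and 3.86 for *Slco2a1* (SE 0.164). Of 20455 genes in that comparison, 2338 (11.4%) were called higher, that is, with an adjusted p under 0.05 and a log2 fold change over 1.2, and 25.2% in either direction; the genes' own count was set by the rule. Against KO26 the values were 6.22, 5.96 and 4.09, in a comparison that called 18.3% of all genes. KO26 lay slightly under WT, at -0.47 (SE 0.313), -0.30 (SE 0.357) and -0.19 (SE 0.274), in a comparison that called 1.92%. These comparisons share libraries and were used to choose the genes, so no p is given.

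Per kilobase of the canonical transcript (7.32 kb for *Dock10*, 2.76 kb for *Ptpn22*, 7.12 kb for *Slco2a1*), the 3 genes reached similar mean levels in KO22, of 13.8, 15.7 and 12.8 CPM per kb. Their KO22 libraries overlapped, with 5.17 to 21.2 CPM per kb for *Dock10*, 10.2 to 18.7 for *Ptpn22* and 11.7 to 14.2 for *Slco2a1*. In WT the mean was 0.3 CPM per kb for *Dock10*, 0.297 for *Ptpn22* and 0.939 for *Slco2a1*. The order in WT therefore placed *Slco2a1* first, while *Dock10* (0.0597 to 0.402 CPM per kb) and *Ptpn22* (0.249 to 0.339) overlapped. Their order changed with the batch, which was not tested. In batch 1 *Dock10* was the lower (0.0597 against 0.317), and in batch 2 the higher (0.363 to 0.402 against 0.249 to 0.339).

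The batches differed most in *Dock10*. The mean of batch 2 over batch 1 was 6.36-fold in WT, 3.5-fold in KO22 and 4.71-fold in KO26. Over the 9 libraries, with the groups as terms, the batch 2 coefficient was 2.06 on the log2 scale (SE 0.211) for *Dock10*, 0.74 for *Slco2a1* and 0.49 for *Ptpn22*. These coefficients come from the counts that chose the genes and were looked at after the batch 1 libraries were seen to be low, so they are given with no test; in that fit 1.91% of 20737 genes were called higher, 0.661% lower and 2.58% in either direction. Within batches the KO22 to WT ratio was 86.7 in batch 1 and 47.7 in batch 2 for *Dock10*, 32.3 and 63.2 for *Ptpn22*, and 20.6 and 12.5 for *Slco2a1*. The rule itself sets a ratio over 8 in each batch. *Ptpn22* had its larger ratio in batch 2, the other genes in batch 1.

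In RPE/choroid, which had no part in choosing the genes, edgeR called none of the 3 changed. *Dock10* and *Slco2a1* had an unadjusted p under 0.05, as did 8.3% of all genes. *Dock10* was at 10.7, 16.5 and 13.6 CPM in WT 1 to 3 and at 17.6, 19.8 and 24.6 CPM in the libraries labelled *Prom1*-KO 1 to 3. The groups did not overlap, which held for 6.71% of genes in that direction. The log2 fold change was 0.60 (SE 0.201, edgeR adjusted p = 0.458).

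*Ptpn22* was at 2.43, 2.49 and 1.85 CPM in WT and at 2.7, 2.51 and 2.32 CPM in the libraries labelled *Prom1*-KO. The groups overlapped, and the log2 fold change was 0.16 (SE 0.192, edgeR adjusted p = 0.881).

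*Slco2a1* went the other way from KO22. It was at 7.48, 13.1 and 10.7 CPM in WT 1 to 3 and at 4.95, 4.46 and 5.47 CPM in the libraries labelled *Prom1*-KO 1 to 3, and the groups did not overlap, as for 7.89% of genes in that direction. The log2 fold change was -1.07 (SE 0.219, edgeR adjusted p = 0.184). In this comparison edgeR called 47 of 24926 genes lower (0.189%) and 0 higher, 2068 genes had an unadjusted p under 0.05, and DESeq2 called 189 lower and 84 higher. With DESeq2 the adjusted p of *Slco2a1* was 0.00389, but its log2 fold change of -1.07 did not reach the limit of 1.2. For single values, a two-sided exact permutation test of log2 CPM gave p = 0.1 for *Dock10*, 0.4 for *Ptpn22* and 0.1 for *Slco2a1*, and 0.1 is the smallest p that 3 against 3 libraries allow.

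The summed levels of markers of other cells were set beside these values. None of the 14 endothelial and 10 T and NK cell markers tested was called in RPE/choroid with edgeR. The 14 endothelial markers summed to 161, 312 and 215 CPM in WT 1 to 3 and to 151, 134 and 123 CPM in the libraries labelled *Prom1*-KO 1 to 3. The order of the WT libraries was that of *Slco2a1* and also of *Dock10*, whereas among the libraries labelled *Prom1*-KO the one with the most *Slco2a1* had the lowest sum. The 10 T and NK cell markers in the table summed to 5.26 to 6.88 CPM in WT and to 7.36 to 9.01 CPM in the libraries labelled *Prom1*-KO. *Cd4* alone had a mean of 4.36 and 5.25 CPM in these groups. The melanocyte markers summed to 448 to 730 CPM in WT and to 734 to 775 CPM in the libraries labelled *Prom1*-KO. Most of that sum was *Dct* (mean 459 and 593 CPM), and none of the 5 markers was called. *Sox10* (28.1 and 18.1 CPM) and *Mc1r* (0.435 and 0.304 CPM) had the lower mean in the libraries labelled *Prom1*-KO. The T and NK cell sum, the melanocyte sum and *Dock10* were thus each higher in all 3. The RPE markers (2060 to 2970 against 582 to 790 CPM), the endothelial markers and *Slco2a1* were each lower in all 3. The macrophage markers (148 to 177 CPM in WT, 151 to 174 CPM labelled *Prom1*-KO) and the B cell markers (1.61 to 1.68 against 1.36 to 1.76 CPM) overlapped between groups. So did the mast cell, fibroblast, pericyte and photoreceptor markers. The part of these cells in the results for *Dock10* and *Slco2a1* was not tested. Library 3 labelled *Prom1*-KO had a TMM factor of 0.488 where the other 5 had at least 1.07; without it the log2 fold change was 0.44 for *Dock10* and -1.16 for *Slco2a1*.

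**Figure D2:**
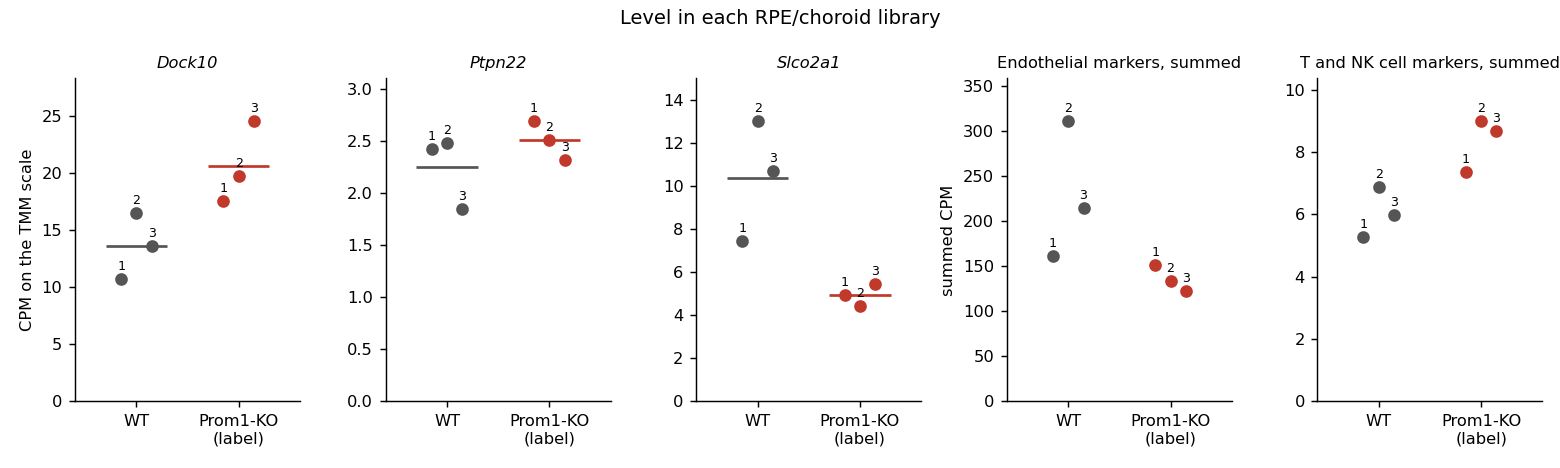
Level of the 3 genes and summed level of endothelial and of T and NK cell markers in each RPE/choroid library, in CPM on linear axes from 0. Points are libraries with their replicate number and bars are group means; *Slco2a1* lies at 7.48 to 13.1 CPM in WT and at 4.46 to 5.47 CPM in the libraries labelled *Prom1*-KO.

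In mRPE, by contrast, most defining markers of the immune cells that use *Dock10* and *Ptpn22* had no row in the count table. That was so for 10 of 12 macrophage markers, *Ptprc* included, 10 of 12 T and NK cell markers and 5 of 6 B cell markers. As for the RPE markers, a missing row need not mean 0 counts. The 2 macrophage markers with a row summed to 7.61 to 9.33 CPM in WT and to 10.2 to 13.8 CPM in KO22, and the 2 T and NK cell markers to 0.393 to 1.03 and 0.543 to 0.771 CPM. The B cell transcription factor *Pax5* had a mean of 0.14 CPM in WT and 4.37 CPM in KO22 (log2 fold change 5.34). It had 0, 1, 5 and 0 counts in WT and 15, 174 and 44 in KO22. *Pax5* thus passed the filter on low counts only with its KO22 libraries, and its fold change is a description. The summed level of the endothelial markers was 82.8 to 98.2 CPM in KO22 and 217 to 272 CPM in WT, a fall carried by *Kdr* (177 to 2.21 CPM). Without *Kdr* the other 7 summed to 80.2 to 94.5 CPM in KO22 and 37.5 to 66 CPM in WT. Most of that sum was *Flt1* (77.1 to 90.9 CPM in KO22, 32.8 to 63.5 CPM in WT), which was not called (0.67). Of the 8 with a row, *Kdr* and *Tek* were called lower and *Plvap* higher, or 37.5% beside 25.2% of all genes in either direction. *Plvap* overlapped, with 0 to 0.755 CPM in WT and 0.388 to 2.51 CPM in KO22. The other 6 markers, *Cdh5*, *Cldn5* and *Tie1* among them, had no row. Fibroblast markers, which were abundant in these cells, summed to 10900 to 13900 CPM in WT and 4100 to 5870 CPM in KO22. Of the 5 with a row, 3 were called lower, beside 13.8% of all genes. These were *Col1a2* (5870 to 1780 CPM), *Col1a1* (4120 to 1530 CPM) and *Pdgfra* (1420 to 487 CPM). *Dcn* went the other way, from 828 to 1190 CPM, and was not called (0.61).

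Genes that work with *Slco2a1* on prostanoids included several that were higher in KO22. Prostanoids are made by the cyclooxygenases, leave cells through the exporter ABCC4, act on receptors at the cell surface and are taken up again by SLCO2A1. Of 10 receptor and export genes listed, 7 were tested, and *Ptger3*, *Ptgdr* and *Tbxa2r* had no row. Of the 7, 4 (57.1%) rose against WT and none fell, and the same 4 rose against KO26. Over all genes 11.4% and 7.56% rose. The list was chosen with earlier results of these data known, so its share is a description. *Ptger2* and *Ptgfr* also met the 8-fold rule. The list's median log2 fold change against WT was 1.85, beside -0.032 over all genes tested.

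*Ptger2*, a receptor for prostaglandin E that couples to cyclic AMP, had 0.675, 0.411, 0.393 and 0.431 CPM in WT 1 to 4 and 38.1, 23.6 and 22 CPM in KO22 1 to 3. It had 0.371 and 1.16 CPM in KO26 and so shared the pattern of the 3 genes (log2 fold change 5.77 against WT, edgeR adjusted p = 1.61e-07, and 5.49 against KO26, adjusted p = 1.41e-05). *Ptgfr*, the receptor for prostaglandin F, had a mean of 3.48 CPM in WT, rose to 41.5 CPM in KO22 and was at 3.57 CPM in KO26 (3.55 against WT). *Abcc4*, the exporter, rose from 9 to 93.8 CPM and was at 11.8 CPM in KO26 (3.37 against WT). *Ptgir*, the prostacyclin receptor, rose from 0.95 to 3.55 CPM (1.85 against WT), while *Ptger1* (27 and 23.6 CPM), *Ptger4* (9.26 and 7.51 CPM) and *Ptgdr2* (2.07 and 1.54 CPM) did not pass.

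Among 12 genes of prostaglandin synthesis and breakdown, 2 rose and 1 fell in KO22 against WT, or 25% beside 25.2% of all genes in either direction. *Ptgs2*, the inducible cyclooxygenase, had 129 to 173 CPM in WT and 1570, 423 and 464 CPM in KO22 1 to 3, so the batch 1 library was far above the others (2.11, edgeR adjusted p = 0.00081, and 1.49 to 2.45 over the alternatives). *Ptgs1*, the constitutive cyclooxygenase, rose from 66.3 to 272 CPM (2.03) and was at 133 CPM in both KO26 libraries. *Ptgis*, which makes prostacyclin, fell from 84.4 to 12.7 CPM (-2.73, adjusted p = 1.24e-06) and was at 90.8 CPM in KO26. The prostaglandin E synthase *Ptges* had 46.3 CPM in WT and 50 CPM in KO22. *Hpgd*, whose product oxidises the prostaglandins that SLCO2A1 brings in, had no row in the mRPE table.

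Of 7 other organic anion transporters tested, 3 were higher and 1 lower against WT, where 11.4% and 13.8% of all genes were. *Slco4a1* and *Slco1a1* passed the filter on low counts through KO22 alone, so their calls are no support. *Slco4a1* had 0, 2, 0 and 0 counts in WT and 0 in KO26, and 29, 111 and 68 counts in KO22 (2.51, 5.35 and 5.28 CPM). *Slco1a1* had at most 2 counts in WT and 25 to 55 in KO22. *Slco1a6* rose from 1.03 to 2.41 CPM (1.41, 1.25 to 1.56 over the alternatives and not called without the batch term), and *Slco1a6* against KO26 did not pass (0.95). *Slco1c1*, a thyroid hormone transporter, fell in KO22 (0.773 to 0.193 CPM, -1.80) and was the one gene of the 7 pathway and family lists called in RPE/choroid, at 13.9 CPM in WT and 1.46 CPM in the libraries labelled *Prom1*-KO (-3.27, edgeR adjusted p = 0.00556). The *Slco1c1* call in mRPE was lost with no batch term, without WT 4, without KO22 2 and without KO22 3, and that in RPE/choroid without library 2 labelled *Prom1*-KO (adjusted p = 0.0546).

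Of 11 other DOCK and ELMO genes tested, 0 were called higher and 1 lower in KO22 against WT with edgeR, beside 11.4% and 13.8% of all genes. *Dock4* fell from 48 to 19.7 CPM (-1.24) and was at 23.2 CPM in KO26. The nearest relatives *Dock11* (0.87) and *Dock9* (-0.65), exchange factors for Cdc42, were under the limit of 1.2 on the fold change. The GTPases themselves did not pass both limits: *Rac1* had 446 CPM in WT and 522 CPM in KO22, and *Cdc42* 139 and 196 CPM. Of 29 GTPases and effectors, *Wasf1* rose (2.65 to 6.9 CPM, 1.35, not called without KO22 3) and *Wasf3* (-4.54), *Cyfip2* (-4.18), both of the WAVE actin-nucleating complex, and *Rhoj* (-1.45) fell. KO22 1 to 3 held 1, 16 and 0 counts of *Wasf3* and 0, 6 and 0 of *Cyfip2*, so the sizes depend on KO22 2 and the prior count (-7.35 to -4.07 and -8.09 to -3.72 over the alternatives).

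Of 13 genes of PEST phosphatases, CSK and SRC-family signalling tested, 1 was called higher and 1 lower, beside the same shares of all genes. *Syk*, a kinase downstream of immune receptors, passed narrowly (5.79 to 13.3 CPM, lost under 6 of 13 alternatives) and the SRC-family kinase *Lyn* fell (31.2 to 9.74 CPM, -1.67). *Csk*, the kinase that PTPN22 binds, had 9.24 CPM in WT and 14.3 CPM in KO22 (0.64), and the closest phosphatase *Ptpn12* had 85.7 and 152 CPM (0.82). Of 12 other non-receptor tyrosine phosphatases, 0 rose and *Ptpn5* (-3.51) and *Ptpn13* (-1.78) fell, a share of 16.7% beside 13.8% of all genes.

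Over all 7 lists, 11 of 91 genes rose and 9 fell in KO22 against WT (11.4% and 13.8% over all genes). Against KO26, 8 of 91 rose and 8 fell (7.56% and 10.7% over all genes). In KO26 against WT 0 rose and 0 fell with edgeR, where 1.21% and 0.719% of all genes did. *Ptgs1* (0.98, edgeR adjusted p = 0.0108) and *Dock4* (-0.96, adjusted p = 0.0169) moved as in KO22 but did not reach the limit on the fold change. Of the 91, 14 had an unadjusted p under 0.05, and DESeq2 called *Pak4* higher and *Ptpn5* lower. In RPE/choroid 1 of 112 was called, as lower, where 0.189% of all genes were called lower and 0 higher.

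**Figure D3:**
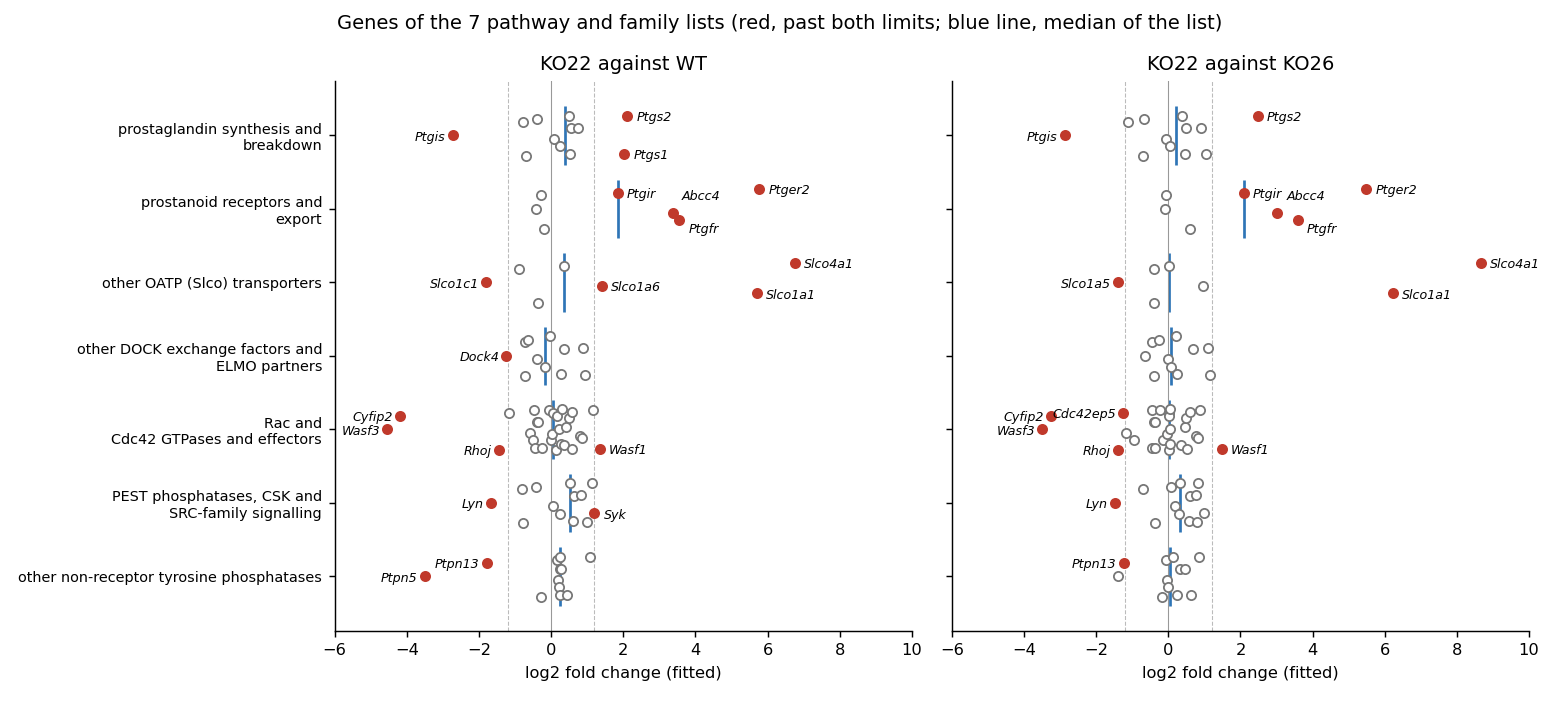
Fitted log2 fold change of each tested gene of the 7 lists in KO22 against WT and KO22 against KO26 mRPE; the genes that chose the lists are not drawn. Red points were called and blue lines are list medians; the receptor and export list has its median at 1.85 and 2.1, and the fitted values of *Slco4a1* and *Slco1a1* rest on at most 2 counts in each WT library.

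The genes around the 3 loci were compared, within 500 kb of each gene body. Of all genes tested, 11.4% were called higher and 13.8% lower. Around *Dock10*, 2 of 6 neighbours tested were higher. Both lie inside the gene on its strand, between the 2 start sites shown. They passed the filter on low counts through KO22 alone, so their calls are no support. *Gm37645* had 0 counts in WT and 0.865 to 2.95 CPM in KO22, and *Gm38062* at most 0.0718 CPM in WT and 0.605 to 4 CPM in KO22. The nearest tested gene outside, *Cul3*, a ubiquitin ligase scaffold 160 kb downstream, had 302 CPM in WT and 333 CPM in KO22 (0.15, edgeR adjusted p = 0.288). *Gm37262* (-1.47, not called without WT 1 or KO22 1) and *Gm37932* (-2.16), also downstream, fell.

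Around *Ptpn22*, 6 of 29 neighbours were higher and 1 lower, beside 11.4% and 13.8% of all genes. Among the 6 are the lncRNA genes *Gm15472* and *Gm43065*, which lie inside *Ptpn22* on its strand. They passed the filter through KO22 alone, so their calls are no support and the 6 cannot be read against the share of all genes. They had 0 to 0.144 CPM in WT and 1.21 to 2.46 CPM in KO22. *Rsbn1*, 1.87 kb beyond the end of *Ptpn22*, rose from 54.4 to 61 CPM in WT to 201, 153 and 163 CPM in KO22 1 to 3 (1.56, adjusted p = 9.07e-06), with 41.3 and 59.3 CPM in KO26. *Bcl2l15*, 3.63 kb upstream, stayed under 1 CPM in every library (0.84, adjusted p = 0.327). *Dclre1b* (1.56), *Gm15471* (1.32) and *Phtf1os* (1.25), 50.2 to 52.3 kb away, also rose, whereas *Phtf1*, 55.7 kb downstream, did not change by the test (0.01), and *Gm42699* fell (-1.47). The call of *Gm15471* was lost without WT 2, that of *Phtf1os* without WT 1 or KO22 1, and that of *Gm42699* under 5 of 13 alternatives.

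Around *Slco2a1*, 6 of 11 neighbours tested were higher and 1 lower, beside 11.4% and 13.8% of all genes. The nearest gene downstream, *Rab6b*, a vesicle-transport GTPase 15.7 kb away, rose from 11.8 to 28.7 CPM (1.29) and was at 7.87 CPM in KO26. *Srprb* (1.40), the iron carrier transferrin *Trf* (2.00), the replication-checkpoint gene *Topbp1* (2.55) and *Cdv3* (1.78), 92 to 257 kb downstream, rose too. *Topbp1* went from 71.8 to 423 CPM, with 138 CPM in KO26. The nearest gene upstream, *Ryk*, did not pass (-0.22), and *Amotl2*, 255 kb upstream, fell (-1.29). The call of *Rab6b* was lost without KO22 2, that of *Amotl2* without KO22 1, and that of *Trf* without WT 1, KO22 1 or KO22 2. *Gm47468* lies inside *Slco2a1* on the opposite strand (0.121 CPM in WT, 0.739 CPM in KO22, 2.44). It had 8, 1, 1 and 0 counts in WT and 11, 15 and 7 in KO22. *Trf* had 7, 4, 3 and 10 in WT and 40, 25 and 9 in KO22. Both passed the filter on low counts only with their KO22 libraries, so their calls are no support. The 6 of 11 include them and cannot be read against the share of all genes. The 5 genes that overlap the 3 loci may hold reads of the larger gene, or the reverse, since the strand setting of the counting is not given in the sources used here. Without KO22 1, or without KO22 2, 8 of the 14 neighbours were still called higher; *Gm37645*, *Gm38062*, *Gm15472* and *Gm43065* were then no longer tested, and 2 others lost the call.

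**Figure D4:**
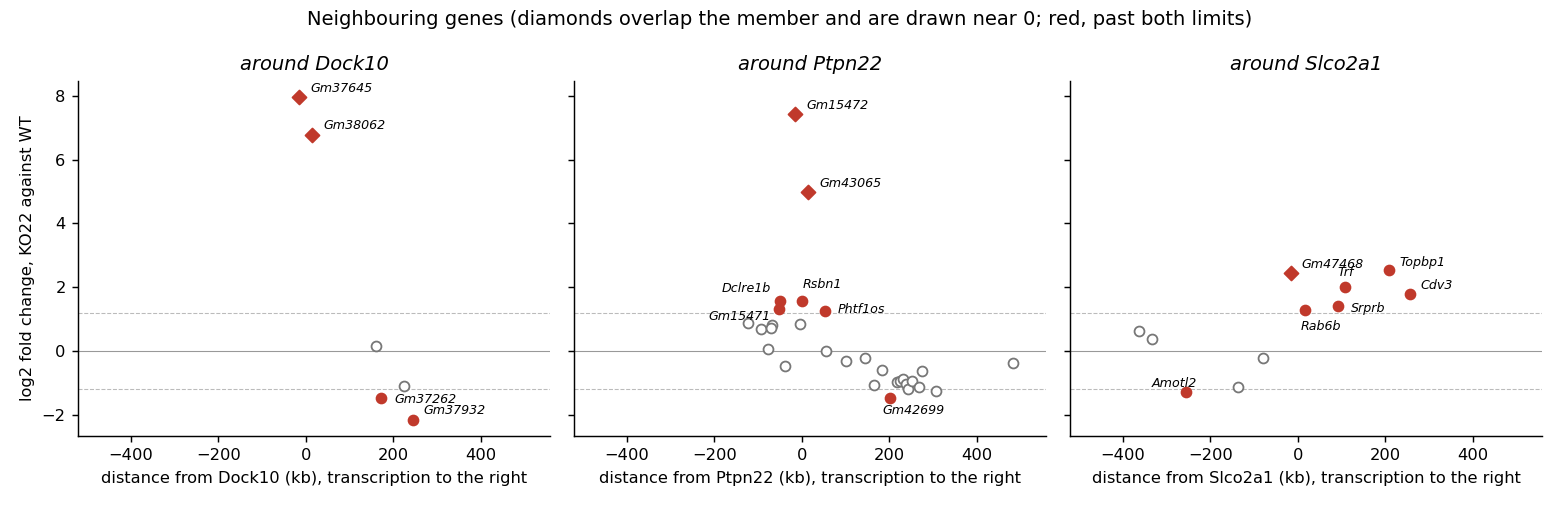
Log2 fold change of KO22 against WT for the genes within 500 kb of each gene, by distance in kb from the gene body, with transcription to the right. Red points pass both limits and diamonds are genes inside the body; the red points downstream of *Slco2a1* run from *Rab6b* at 15.7 kb to *Cdv3* at 257 kb.

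Across the 9 mRPE libraries, the 3 genes followed each other, with Pearson's r of log2 CPM of 0.983 for *Dock10* and *Slco2a1*, 0.971 for *Ptpn22* and *Slco2a1* and 0.952 for *Dock10* and *Ptpn22*. The libraries fall into KO22 and the rest, so these r describe that split and the batches, and many genes share it: 632, 1253 and 873 genes had r over 0.9 with *Dock10*, *Ptpn22* and *Slco2a1*. Most like *Dock10* were *Tmem26* (r = 0.996), *Gm2099*, *Ecpas*, *AU020206* and *Gnb4*, of which *Tmem26* had 1.12 CPM in WT and 10.9 CPM in KO22. Most like *Ptpn22* were the growth factor gene *Bmp2* (r = 0.997), *Cttnbp2nl*, *Gm30866*, *1700012B09Rik* and *Gad1os*. *Bmp2*, *Gm30866*, *1700012B09Rik* and *Gad1os* had 0 counts in every WT and KO26 library. Most like *Slco2a1* were *Hgf* (r = 0.996), *Nab1*, *4933416M07Rik*, *Ccdc88a* and *Slc25a37*. *Hgf*, the hepatocyte growth factor, had 2.98, 8.16, 6.77 and 6.96 CPM in WT 1 to 4, 91.1, 97.8 and 87.6 CPM in KO22 1 to 3 and 2.32 and 6.48 CPM in KO26 1 and 2, so that it was also lowest in the batch 1 libraries of WT and KO26.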

How the data were processed

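RNA-seq was analysed in 9 mRPE and 6 RPE/choroid libraries, grouped by their labels. The authors trimmed reads (Trim Galore 0.6.7), aligned them to mm39 with STAR and deposited raw counts per gene (their normalized tables were not used); which strand was counted is not given in the sources used here. The counts were fitted with edgeR 4.0.16 in R 4.3.3 (quasi-likelihood test, TMM factors, the batch as a term in mRPE). Genes needed 5 counts or more in 3 or more libraries, with Benjamini-Hochberg adjustment over all genes. A call needed an adjusted p below 0.05 together with a log2 fold change beyond 1.2 in either direction. The fit of KO22 against WT took its 7 libraries, which are those the paper kept. The other mRPE fits took all 9, with both KO26 libraries that the paper removed as outliers. DESeq2 1.42.0, its size factors, no count filter, no batch term and each library left out were alternatives. Values are CPM, and log2 CPM has a prior count of 2. The genes, lists and tests were chosen with earlier results of these data known. The text names the 3 genes, the 5 genes most like each, list members that were called or abundant, and neighbours that were nearest or called; *Pax5* and *Hpgd* were added after their values were seen. Promoters and coordinates came from GENCODE vM39. The methods were tested on simulated data. Depth sets the precision of the low counts given beside each level. The value of 1 list member is not reported here.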

Additional observations from a re-analysis of the deposited data

Results flagged for a closer look

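A library of the 4 WT mRPE libraries stood apart from the other 3, by a gap over Dixon's limit, for 8 of 56 genes checked. The limit is set for about 1 in 20 by chance, but the 8 cannot be read against that. The genes were picked on these same data, and some were at 0 in every WT library and could not be flagged. WT 1 is also the only WT library of batch 1. For 5 of the 8 it was the batch 1 library. *Dock10* had 0.437 CPM there beside 2.66 to 2.95 CPM in the others, and *Ptpn13* had 181 CPM beside 274 to 281. *Ptger2* (0.675 CPM beside 0.393 to 0.431), *Cdv3* (135 beside 84 to 89) and *Topbp1* (95.3 beside 62.2 to 65.1) were higher there. In batch 2, *Slco4a1* had 0.137 CPM in WT 2 and 0 in the other WT libraries, *Gm38062* had 0.0718 CPM in WT 4 and 0 in the others, and *Trf* had 0.718 CPM in WT 4 beside 0.274 to 0.295. *Slco4a1* and *Gm38062*, with counts in 1 WT library alone, pass Dixon's limit by construction, so their share in the 8 cannot be read against chance.

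Of the list genes called in KO22 against WT (11 higher and 9 lower), 14 were also called in KO22 against KO26. Both comparisons use the same KO22 libraries, and the first one picked the genes, so the count of 14 is no separate support. Over all genes, 7.56% were called higher and 10.7% lower against KO26. The log2 fold change of KO22 against KO26 was 5.49 for *Ptger2*, 3.59 for *Ptgfr*, 3.02 for *Abcc4*, 2.10 for *Ptgir*, 2.48 for *Ptgs2*, 1.48 for *Wasf1*, 6.23 for *Slco1a1* and 8.67 for *Slco4a1*, the last 2 of which had at most 1 count in a KO26 library, so that their fitted values depend on the prior count. It was -2.87 for *Ptgis*, -3.49 for *Wasf3*, -3.25 for *Cyfip2*, -1.48 for *Lyn*, -1.40 for *Rhoj* and -1.24 for *Ptpn13*. The calls of *Ptgs2* and *Rhoj* were lost without KO26 1, those of *Wasf3* and *Cyfip2* without KO26 2, and that of *Ptpn13* without KO22 3 or KO26 2.

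Each KO22 library had more *Slco2a1* than any WT mRPE library, while it was lower in every RPE/choroid library labelled *Prom1*-KO than in every WT one (-1.07). The difference between cells and tissue was not tested.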

How the results depend on the processing

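In RPE/choroid none of *Dock10*, *Ptpn22* and *Slco2a1* passed both limits under any of 11 alternatives (log2 fold changes 0.44 to 0.76, 0.03 to 0.23 and -1.26 to -0.88). The batch coefficient of *Dock10* was 1.87 to 2.49 over 12 alternatives, while that of *Ptpn22* ran from -0.01 (without KO22 1) to 0.75 with a library left out. The log2 fold change of KO22 against WT was 5.01 for *Ptpn22* and 4.37 for *Slco2a1* within batch 1 and 3.65 for *Slco2a1* within batch 2, and 3.64 to 3.93 for *Slco2a1* with a library left out. With no limit on the fold change, 30 list genes rose and 21 fell against WT, 23 and 15 against KO26 and 1 and 1 in KO26 against WT, and 13 neighbours fell against WT and 2 against KO26, since more genes can pass. DESeq2 called 1 higher and 1 lower list gene in KO26 against WT and 3 lower in RPE/choroid; over all genes it called 269 lower in KO26 against 149, and 189 lower and 84 higher in RPE/choroid against 47 and 0, and the cause was not tested. With a library left out, list genes called numbered 7 to 12 higher against WT (7 without KO22 3, when *Slco4a1* and *Slco1a1* were no longer tested and *Syk* and *Wasf1* lost the call), 0 to 1 higher and 0 to 2 lower in KO26, and 0 to 1 lower in RPE/choroid (0 without library 2 labelled *Prom1*-KO); neighbours numbered 8 to 14 higher and 3 to 7 lower against WT, and 7 to 12 higher and 0 to 1 lower against KO26, with the fewest higher without KO22 1 or 2 (8) and without KO22 2 (7). Windows of 200 kb gave 1 lower neighbour against WT and of 1000 kb 1 lower against KO26. The KO26 counts over all genes ran from 68 to 490 higher and from 32 to 407 lower. At 9 to 40 counts per WT or KO26 library for *Dock10* and 6 to 22 for *Ptpn22*, counting error limits the fold changes. No paired analysis was possible because the labels carry no replicate numbers shared between groups; the batch was a term.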
